A study of Caenorhabditis elegans with 6 samples.

Results

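The hedgehog-related and patched-related genes of Caenorhabditis elegans were described in adult worms raised on tyrosol and in adults raised on vehicle. They were taken as the genes whose symbol in the array annotation starts with wrt, grd, grl, hog, qua, ptr, ptc or ptd followed by a number. The array measured 81 such genes of 17118 genes in all, 54 of them ligand genes and 27 of them patched-related genes. Another 8 genes with such names in the RefSeq gene table (WBcel235) were matched by no unshared probe set and were not analysed here: grd-4, grd-6, grd-13, grd-15, grd-17, grl-26, grl-32 and ptc-2. All worms carried fer-15(b26), a mutation that makes them sterile at high temperature, and were propagated at 20 °C and raised at 25 °C from the egg on plates with 0.1% ethanol. The 3 tyrosol samples grew on 250 µM tyrosol, a phenolic alcohol of olive oil, and the 3 control samples on the ethanol vehicle, and both were collected on day 4 of adulthood. RNA of whole worms was hybridised to Affymetrix C. elegans arrays, 1 array a sample. The labels do not say whether the replicates came from separate cultures. The limma p-values given below therefore reflect how far these samples spread, which may be technical, and the rank product calls rest on the same samples.

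In flies and vertebrates a Hedgehog protein cuts itself through its C-terminal Hint domain, is released with cholesterol attached, and binds Patched, a membrane protein with a sterol-sensing domain that otherwise holds Smoothened silent. The worm has no clear Smoothened and no typical Hedgehog, but large families that share parts of both partners: warthog (wrt), groundhog (grd), ground-like (grl), hog and quahog (qua) genes on the ligand side, and patched (ptc) and patched-related (ptr) genes on the receptor side. These genes are best known from the epidermis and other epithelia, where several are needed for moulting, for the cuticle and for traffic of membrane and lipid. Ligand and receptor are names by descent here, since few worm pairs have been matched to each other.

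Expression is given as the log2 signal of a probe set after RMA, the authors' normalization, and where a gene had more than 1 probe set, the one with the highest mean over the 6 arrays stands for it. Signals of different genes are not comparable as abundances, because each probe set binds with its own strength. In whole worms, fewer cells of a type and less RNA per cell cannot be told apart. The yolk protein gene vit-2, a marker of the adult hermaphrodite, read 9.86 to 10.01 on tyrosol arrays and 9.90 to 10.02 on control arrays. The adult cuticle collagen gene col-19 read 4.98 to 5.05 on tyrosol arrays and 4.85 to 4.94 on control arrays. Tyrosol replicate 2 stood apart from the other arrays: its values scattered about the tyrosol mean with an SD of 0.21 (log2, all probe sets), against 0.11 to 0.15 for the other 5 arrays about their own group's mean. Over the 81 genes the SD was 0.17 on that array and 0.13 to 0.14 on the others. The mean signal gap between 3' and middle probe sets of 5 poly-A control transcripts was 1.38 (log2) there, against 0.78 to 1.02 elsewhere.

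One patched-related gene and one warthog gene were called higher in worms on tyrosol. These were ptr-22, with a 2.05-fold higher signal, and wrt-10, with a 1.67-fold higher signal. The call was made with the rank product, the test named in the series' design text, at an estimated false discovery rate under 0.05. It called 2 of the 81 genes higher, a share of 2.47%, beside 0.865% of all genes tested, and 0 of the 81 lower, beside 0.0234% of all genes. Limma called ptr-22 alone among the 81 (background 0.339% higher and 0.0117% lower) and, blocked on replicate number, called both (0.707% of all genes higher, 0.0234% lower). Below an unadjusted limma p of 0.05 without the block lay 7 of the 81 genes on the higher side, beside 4.55% of all genes, and 0 on the lower side, beside 2.66%. The other 79 genes did not pass the rank product.

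**Figure D1:**
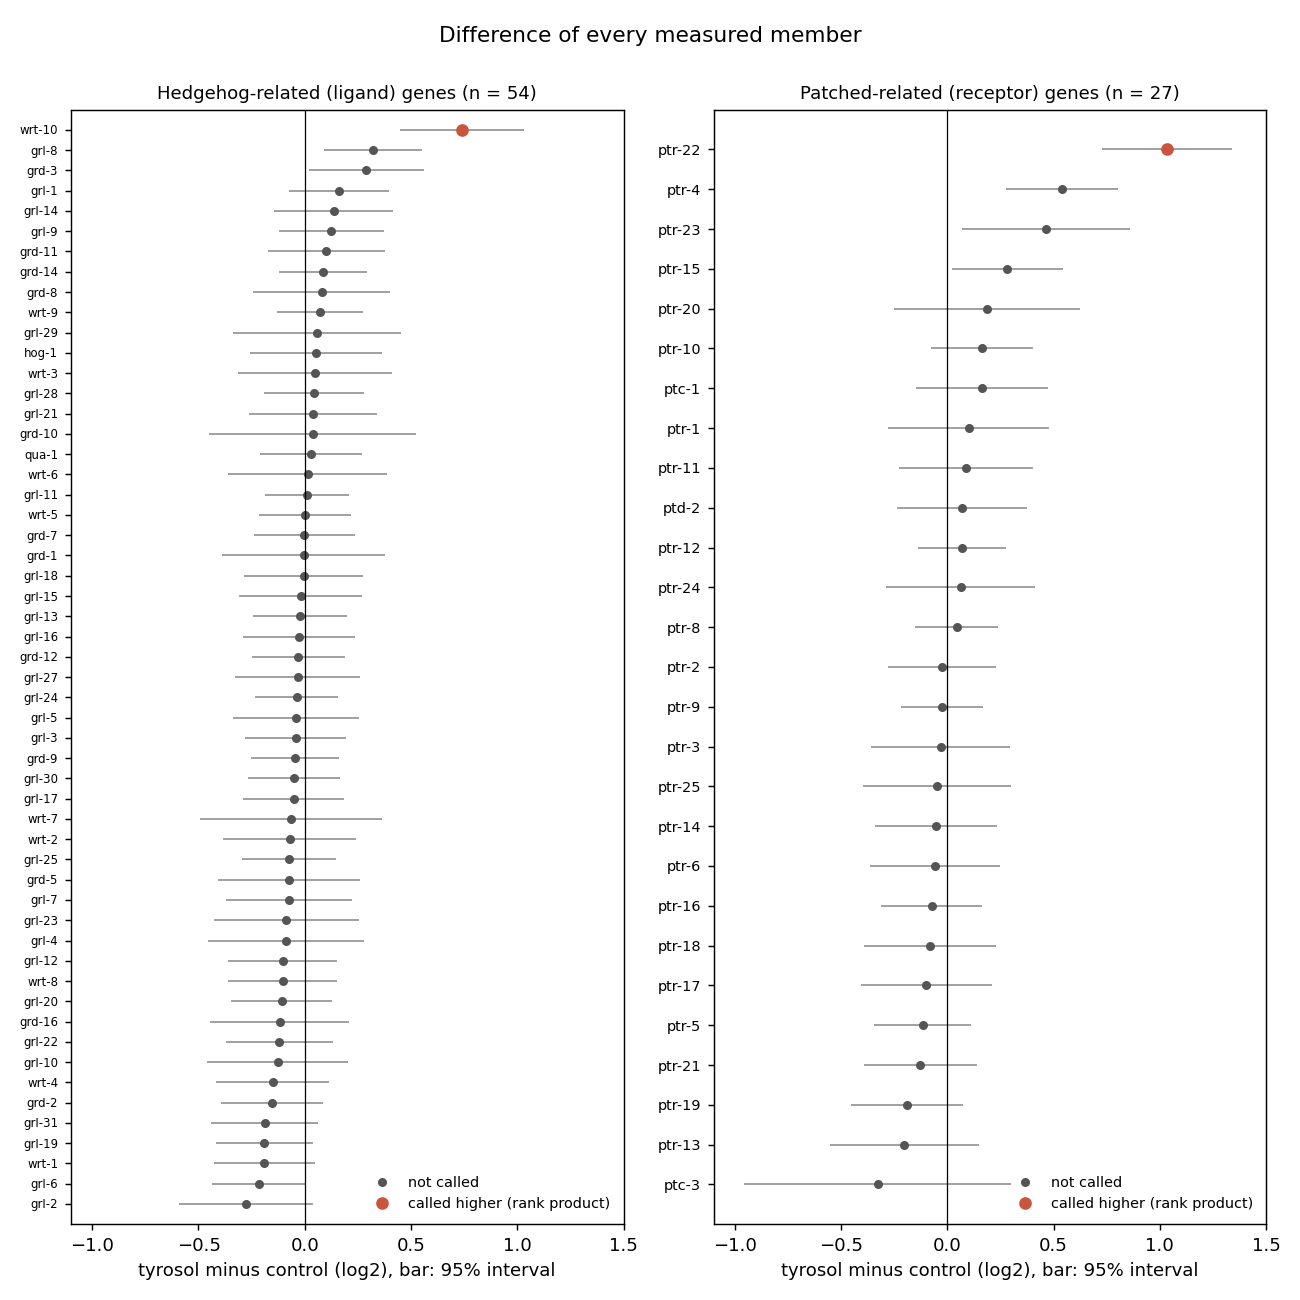
Difference between tyrosol and control worms (log2, x axis) for each of the 54 ligand genes on the left and the 27 patched-related genes on the right, sorted by size. Points are limma estimates from 3 arrays a group, bars are 95% intervals, and the 2 genes called higher by the rank product, wrt-10 and ptr-22, are in red. The intervals of 5 other genes exclude 0, all on the higher side.

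Among the receptors, ptr-22 had the largest difference of all 81 genes. Its gene product is a multi-pass membrane protein of the patched-related family. It read 4.45, 4.44 and 4.29 in tyrosol worms, against 3.22, 3.64 and 3.22 in control worms (log2, replicates 1 to 3). The groups did not overlap, and control replicate 2 lay nearest to the tyrosol arrays. Its mean was 4.39 ± 0.086 in tyrosol worms and 3.36 ± 0.24 in control worms (SD, n = 3 each). The difference was 1.03 on the log2 scale (SE 0.13, 95% interval 0.73 to 1.34), with an estimated false discovery rate of 0.0026 in the rank product and an adjusted p of 0.031 in limma. Within the same replicate number it was 1.23, 0.79 and 1.07, and the blocked limma fit had an adjusted p of 0.017. The rank product called it without each array in turn, with differences from 0.96 to 1.17. In limma the adjusted p ran from 0.0098 to 0.20 in these fits, and it stayed under 0.05 without control replicate 2 alone. In the RefSeq gene table (WBcel235) its neighbours are cyp-42A1 and Y80D3A.8, which differed by -0.020 (SE 0.15) and -0.031 (SE 0.091).

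Next to it stood ptr-4, which is needed for the apical extracellular matrix that precedes the cuticle. Its brighter probe set read 2.17, 2.44 and 2.40 in tyrosol worms and 1.72, 1.72 and 1.95 in control worms. The groups did not overlap, but all 6 values lay below the median signal of all probe sets, 2.58. The difference was 0.54 (SE 0.11), and it missed the threshold in the rank product (false discovery rate 0.10) and in limma (adjusted p = 0.15, and 0.10 with the block). Its fainter probe set differed by 0.067 (SE 0.11).

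The 4 probe sets of ptr-23 all leaned the same way without a call. The gene encodes a patched-related protein that acts with the mucin-like protein OSM-8 in the worm's response to osmotic stress. The probe set that represents it read 4.89, 5.10 and 4.72 in tyrosol worms and 4.35, 4.79 and 4.17 in control worms. Control replicate 2 lay above tyrosol replicate 3, so the groups overlapped, although each tyrosol array exceeded the control array of its own number. The difference was 0.46 (SE 0.17, false discovery rate 0.23, limma adjusted p = 0.57, and 0.16 with the block). The other 3 probe sets differed by 0.54 (SE 0.15), 0.34 (SE 0.12) and 0.32 (SE 0.21), with no overlap of the groups on the first 2 of these. Tyrosol was higher in 3 of 3 pairs of the same number for 14.2% of all genes, and in all 4 probe sets of ptr-23. These probe sets read the same gene on the same RNA and are not separate evidence of a difference between worms.

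**Figure D2:**
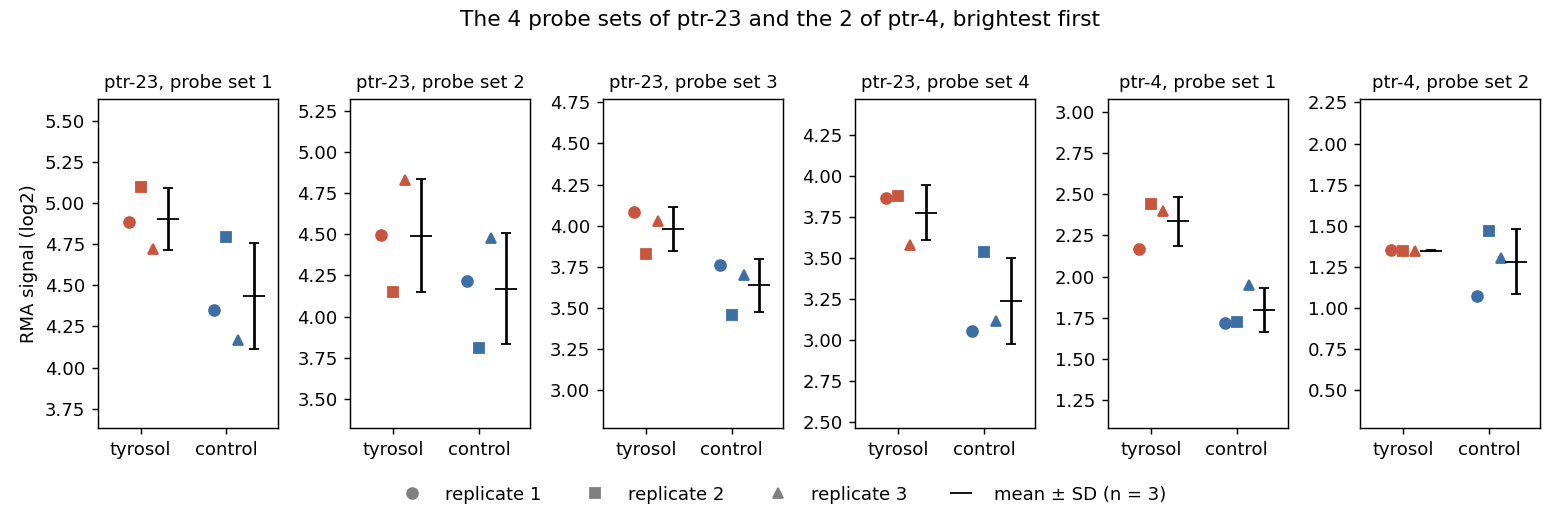
Signal (log2, y axis) on each array for the 4 probe sets of ptr-23 and the 2 of ptr-4, tyrosol on the left and control on the right of each panel; all panels span 2 log2 units. Symbols mark the replicate number and black bars the mean ± SD. The probe sets of ptr-23 differed by 0.32 to 0.54, and those of ptr-4 by 0.54 and 0.067.

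Also ptr-15 and ptr-10 had no overlap between the groups. The signal of ptr-15 was 2.03, 1.84 and 2.19 in tyrosol worms and 1.72, 1.68 and 1.82 in control worms. Its difference was 0.28 (SE 0.11, limma adjusted p = 0.64). The glial gene ptr-10, whose promoter is widely used to mark sheath and socket cells, read 2.15, 1.88 and 1.88 in tyrosol worms and 1.79, 1.83 and 1.80 in control worms. Its difference was 0.16 (SE 0.10). Both lay below the median signal of all probe sets. With ptr-22 and ptr-4 they make 4 of 27 receptors whose tyrosol values all lay above the control values, and 0 of 27 had all below. Over all genes 6.92% lay wholly above and 6.78% wholly below.

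The true patched genes, ptc-1 and ptc-3, were not called. In the germ line ptc-1 is needed for cytokinesis; it read 7.82, 8.34 and 7.98 in tyrosol worms and 7.88, 7.91 and 7.86 in control worms. Tyrosol replicate 2 was the highest and the groups overlapped, and the difference was 0.16 (SE 0.14, 95% interval -0.15 to 0.47). A second probe set of ptc-1 differed by -0.056 (SE 0.098). The gene ptc-3, which is essential for growth and water balance, read 3.86, 3.01 and 4.17 in tyrosol worms and 3.76, 4.21 and 4.06 in control worms. Its difference of -0.33 (SE 0.27) was the lowest of the receptors and rested on tyrosol replicate 2, without which it was 0.0089. A probe set that names both ptc-1 and ptc-2 was also lowest on that array, with 4.12, 3.28 and 4.18 in tyrosol worms and 4.21, 3.73 and 4.21 in control worms. Control replicate 2 was the next lowest there. Tyrosol replicate 2 is the array with the large 3' difference of the poly-A controls, whose part in these values was not tested.

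The patched-related genes with the highest signals were not called. The gene ptr-2, which acts in cytokinesis, read 9.09, 8.94 and 9.06 in tyrosol worms and 9.21, 8.87 and 9.08 in control worms. On this brightest probe set of ptr-2 the difference was -0.026 (SE 0.11). Its 95% interval of -0.28 to 0.23 leaves out a difference of the size seen for ptr-22. A fainter probe set of ptr-2 read 4.21, 2.85 and 4.03 in tyrosol worms and 3.99, 3.40 and 4.28 in control worms. It was lowest on tyrosol replicate 2, like that of ptc-3, and differed by -0.20 (SE 0.36, 95% interval -1.02 to 0.63). The faintest probe set of ptr-2 differed by -0.033 (SE 0.091). For ptr-24 the signals were 5.56, 5.73 and 5.63 in tyrosol worms and 5.66, 5.24 and 5.84 in control worms, a difference of 0.063 (SE 0.15). The patched-domain gene ptd-2 differed by 0.070 (SE 0.13) at signals of 1.35 to 1.81. Of the other receptors none differed by more than 0.21 in either direction.

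**Figure D3:**
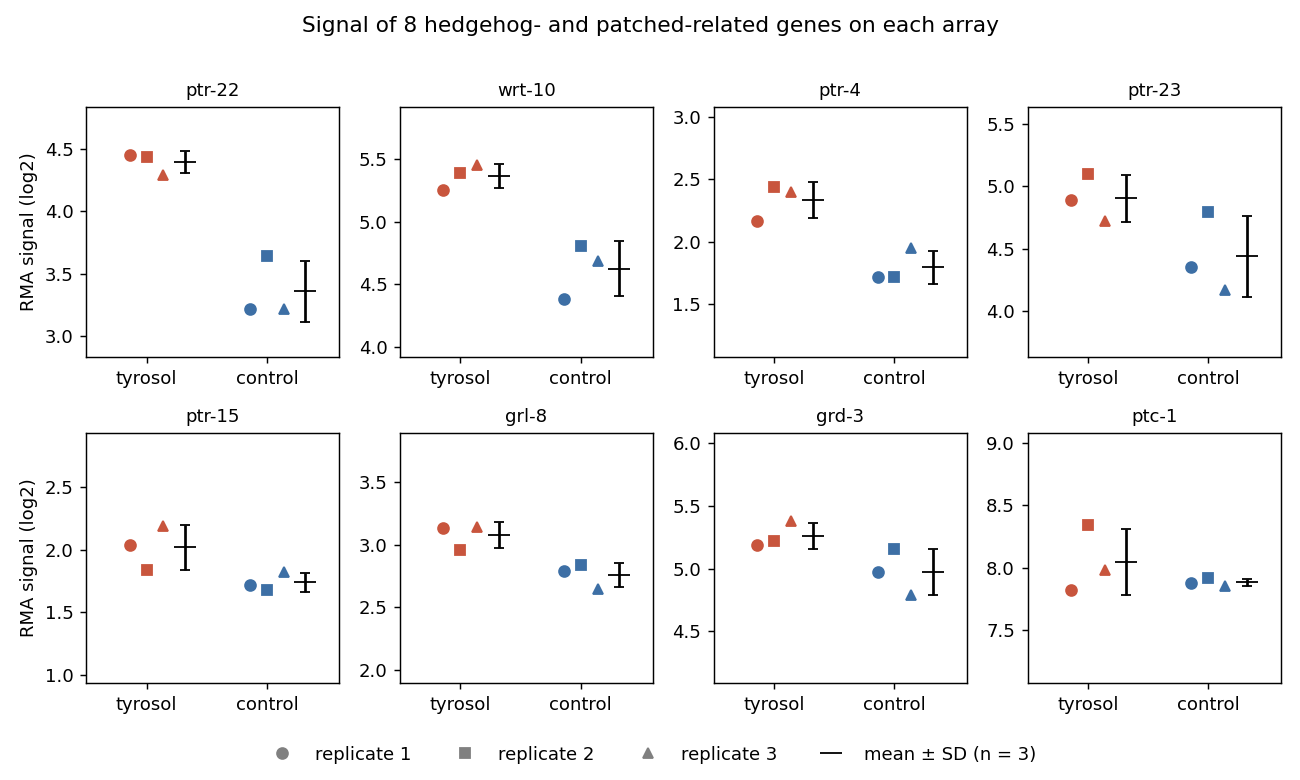
Signal (log2, y axis) on each array for ptr-22, wrt-10, ptr-4, ptr-23, ptr-15, grl-8, grd-3 and ptc-1, with tyrosol left of control; each panel spans 2 log2 units. Symbols mark the replicate number and black bars the mean ± SD. The group means differ by 1.03 in ptr-22 and by 0.74 in wrt-10. The groups do not overlap in ptr-22, wrt-10, ptr-4, ptr-15, grl-8 and grd-3, and overlap in ptr-23 and ptc-1.

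Among the ligands, wrt-10 alone was called. Warthog proteins carry a cysteine-rich N-terminal Wart domain, which in some of them is followed by the Hint domain. The gene wrt-10 read 5.26, 5.39 and 5.45 in tyrosol worms, against 4.38, 4.81 and 4.69 in control worms. The groups did not overlap, and control replicate 1 was the lowest array. Its difference was 0.74 (SE 0.13, 95% interval 0.45 to 1.03), with a rank product false discovery rate of 0.020. The adjusted p was 0.073 in limma and 0.033 in its blocked fit. The rank product lost the call without any 1 of the tyrosol arrays or without control replicate 1, at differences of 0.62 to 0.79.

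A gene next to wrt-10 in the genome was not called. In the RefSeq gene table (WBcel235) wrt-1 and wrt-10 are adjacent genes. The signal of wrt-1 was 1.68, 1.81 and 1.70 in tyrosol worms and 2.08, 1.88 and 1.80 in control worms. Its difference was -0.19 (SE 0.10, limma adjusted p = 0.76), and all values lay below the median signal, with overlapping groups. On the other side of wrt-1 lies ZK1290.5, which differed by 0.50 (SE 0.16). The essential gene wrt-5, whose protein is secreted by epithelia and is needed for the shape of the embryo, averaged 4.89 ± 0.094 in tyrosol worms and 4.89 ± 0.070 in control worms (SD, n = 3 each). Its difference was 0.0010 (SE 0.095), and its 95% interval of -0.22 to 0.22 leaves out the size seen for wrt-10. The other 7 wrt genes differed by -0.15 to 0.070. Of the 10 wrt genes 5 lay above 0 and 5 below, beside 44.7% of all genes above 0, with a median of -0.032.

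The groundhog and ground-like genes, which carry a Ground or Ground-like domain, held no called gene. Of 12 grd genes 5 lay above 0 and 7 below, a share of 41.7% above 0 beside 44.7% of all genes, with a median of -0.0037. The gene grd-3 read 5.19, 5.22 and 5.38 in tyrosol worms and 4.97, 5.15 and 4.79 in control worms, just without overlap. It differed by 0.29 (SE 0.12, limma adjusted p = 0.64), and its measured neighbour grd-10 by 0.037 (SE 0.21). The gene grd-5 read 4.90, 4.43 and 4.53 in tyrosol worms and 4.84, 4.72 and 4.52 in control worms, a difference of -0.075 (SE 0.14). Another gene, grd-14, lay wholly above by a small amount, 0.087 (SE 0.090).

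Of 30 grl genes 8 lay above 0 and 22 below, a share of 26.7% above 0 beside 44.7% of all genes. Their median was -0.043, beside -0.017 over all genes. The largest difference was that of grl-8, which read 3.13, 2.96 and 3.14 in tyrosol worms and 2.79, 2.84 and 2.65 in control worms. The groups did not overlap, and the difference was 0.32 (SE 0.10, limma adjusted p = 0.45). Its genomic neighbours (WBcel235) are grl-9, which differed by 0.13 (SE 0.11), and T25F10.3, which differed by 0.31 (SE 0.11). The gene grl-16, with grl-9 one of the 2 grl genes of highest signal, differed by -0.027 (SE 0.12). On the lower side, grl-6 read 2.21, 2.26 and 2.35 in tyrosol worms and 2.38, 2.55 and 2.55 in control worms, a difference of -0.22 (SE 0.096). The signal of grl-19 was 1.09, 1.35 and 1.25 in tyrosol worms and 1.36, 1.47 and 1.42 in control worms, a difference of -0.19 (SE 0.10). These were the 2 ligand genes with all tyrosol values below the control values, a share of 3.7% beside 6.78% of all genes. All tyrosol values lay above in 4 ligand genes, wrt-10, grd-3, grd-14 and grl-8, a share of 7.41% near the 6.92% of all genes. The marker of the excretory duct and pore cells grl-2 differed by -0.28 (SE 0.14) with overlapping groups, and grl-31 by -0.19 (SE 0.11). Within the same replicate number tyrosol was lower in all 3 pairs for 13% of the ligands, beside 17.9% of all genes. Among these ligands were grl-2, by -0.43, -0.37 and -0.032, and grl-31, by -0.44, -0.044 and -0.088. Neither was called with the block (limma adjusted p = 0.49 for grl-2 and 0.62 for grl-31). Both genes lay below the median signal. The single members hog-1 and qua-1, the second of them a moulting gene, differed by 0.052 (SE 0.14) and 0.029 (SE 0.10) at signals below 1.90.

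Set side by side, ligands and receptors both had medians just below 0. The median difference was -0.026 for the 27 receptors and -0.032 for the 54 ligands, beside -0.017 over all 17118 genes. The receptors ran from -0.33 to 1.03 and the ligands from -0.28 to 0.74. Of the receptors 13 of 27 lay above 0 and of the ligands 20 of 54, shares of 48.1% and 37.0%, beside 44.7% of all genes. The rank product called 1 gene higher on each side, 3.7% of the receptors and 1.85% of the ligands, beside 0.865% of all genes. An unadjusted limma p under 0.05 on the higher side was seen for 4 of 27 receptors (ptr-4, ptr-15, ptr-22 and ptr-23) and 3 of 54 ligands (wrt-10, grd-3 and grl-8). These are shares of 14.8% and 5.56%, beside 4.55% of all genes, so the ligands lay near the background. These are descriptions of chosen lists, and the difference between the 2 lists was not tested. The median of the receptors was of the size of the spread between arrays, 0.043 (SD), and changed sign without any 1 array other than control replicate 2, between -0.030 and 0.034.

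**Figure D4:**
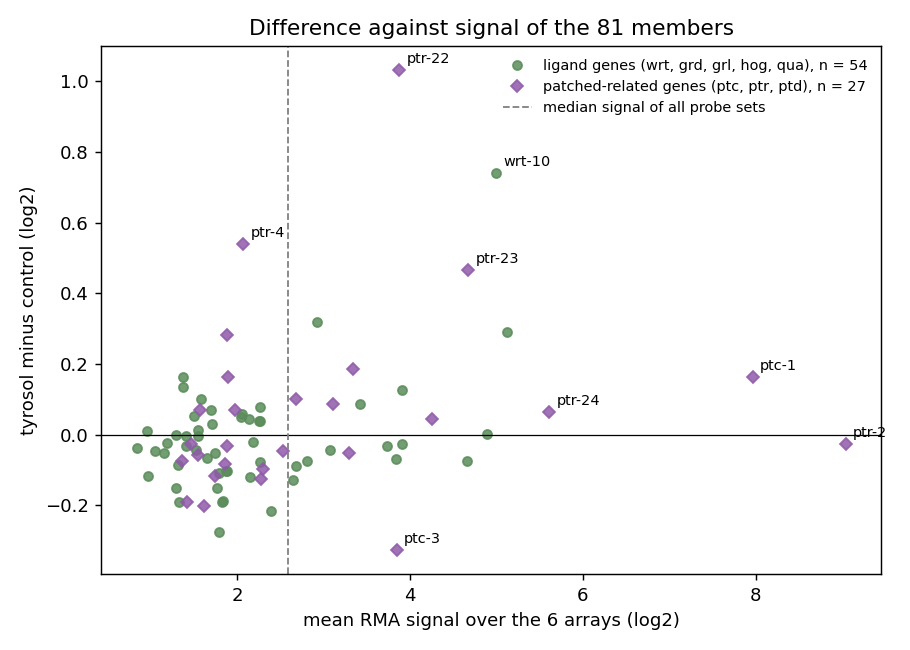
Difference between tyrosol and control worms (log2, y axis) against the mean signal over the 6 arrays (log2, x axis) for the 54 ligand genes (circles) and 27 patched-related genes (diamonds). The dashed line is the median signal of all probe sets; 25 of the 81 genes lie at or above it, among them ptr-22 and wrt-10.

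Most of these genes gave a low signal in the adult worms. At or above the median signal of all probe sets lay 11 of 27 receptors and 14 of 54 ligands, 25 of 81 or 30.9% together, beside 49.8% of all genes. The other 56 lay below it, a range in which arrays are known to understate differences. Among the brighter genes, 8 of 11 receptors lay above 0 with a median of 0.088, and 6 of 14 ligands with a median of -0.030, beside a median of -0.021 for all genes of that range. Among the fainter ones, 5 of 16 receptors lay above 0 with a median of -0.053, and 14 of 40 ligands with a median of -0.035, beside -0.015. Of all genes, 44.1% of the brighter and 45.3% of the fainter lay above 0.

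The other genes tied to hedgehog-type proteins held no call. The list has 20 genes, of which 19 were measured. Among them are genes for ligand release and acylation, sterol-sensing and lipoprotein receptors, glypicans, the Gli factor and kinases that act on it in other animals. The list also holds lin-23, arl-13, ift-74 and ift-81. The rank product and limma called 0 of 19 in either direction, with and without the block. Over all genes the rank product called 0.865% higher and 0.0234% lower, shares at which 19 genes would most often hold no call. An unadjusted limma p under 0.05 was seen for 0 genes on the lower side, beside 2.66% of all genes. On the higher side it was seen for 1 gene, beside 4.55% of all genes. This was daf-6, a patched-related gene under another name that shapes the glial channels of sense organs, which differed by 0.31 (SE 0.095, limma adjusted p = 0.41) below the median signal. The only Gli homologue, tra-1, differed by 0.0018 (SE 0.12), the dispatched-related gene che-14 by 0.097 (SE 0.12) and the megalin gene lrp-1, needed for moulting, by 0.24 (SE 0.13). The list's median difference was 0.013.

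Genes of moulting and of the apical matrix, the processes in which several hedgehog-related and patched-related genes act, held more calls. Of 52 measured genes the rank product called 4 higher and 0 lower, lpr-3, mlt-11, noah-1 and noah-2, and the list's median was 0.044. Of all genes 0.865% were called higher. The lipocalin gene lpr-3, whose protein lies in the matrix that precedes the cuticle, read 4.66, 4.58 and 4.50 in tyrosol worms and 2.97, 3.71 and 3.49 in control worms. Its difference was 1.19 (SE 0.18, limma adjusted p = 0.045) on a probe set that also binds other sequences. The nuclear receptor gene nhr-23, which drives each moult, differed by 0.049 (SE 0.093). Limma called 2 of these genes higher, noah-2 and lpr-3, beside 0.339% of all genes, and all 4 with the block, beside 0.707%. Below an unadjusted limma p of 0.05 lay 13 of the 52 genes on the higher side, beside 4.55% of all genes, and 1 on the lower, beside 2.66%. All tyrosol values lay above the control values in 13 of the 52 genes, beside 6.92% of all genes. They lay wholly below in 6, nhr-85, grh-1, myrf-1, bli-1, bli-4 and nas-7, beside 6.78% of all genes. Of the 52 genes 31 lay above 0 and 21 below, beside 44.7% of all genes above 0.

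Among lists of cell type markers, the sperm list held most of the calls. Over all genes the rank product called 0.865% higher and 0.0234% lower. At these shares a list of 30 genes or fewer would most often hold no call. Of 26 measured epidermis and seam genes the rank product called 1 higher, the epithelial junction gene dlg-1, by 1.05 (SE 0.14, limma adjusted p = 0.032). With the block, where it called 0.958% of all genes higher, it called ajm-1 and elt-6 too. The mean signal of that list was 4.41 to 4.49 in tyrosol worms and 4.29 to 4.35 in control worms. Its median difference was 0.096, with 16 genes above 0 and 10 below. Of 22 glial genes 1 was called, the homeobox gene mls-2, by 0.96 (SE 0.10, limma adjusted p = 0.025). The mean signal of the glial list was 2.16 to 2.22 in tyrosol worms and 2.04 to 2.13 in control worms. Its median difference was 0.023, with 13 genes above 0 and 9 below. Of the 22 genes 18 lay below the median signal of all probe sets. The glial list holds 3 of the 81 genes: grl-2 and ptr-10, given above, and grl-18, which differed by -0.0052 (SE 0.12). Of 30 sperm genes 20 were called higher, and the mean signal was 4.21 to 4.34 in tyrosol worms and 2.98 to 3.64 in control worms, with the highest control value in replicate 2. Of the 30, 21 were read on probe sets that also bind other sequences. The rank product called 0 of 30 neuronal, 23 intestinal, 27 oocyte and germ line, 27 early embryo and 8 adult hermaphrodite genes in either direction, and limma 0. An unadjusted limma p under 0.05 on the higher side was seen for 3, 1, 0, 1 and 0 of these, beside 4.55% of all genes. On the lower side it was seen for 0, 2, 1, 4 and 0, beside 2.66% of all genes. The median differences of these lists were -0.0037, -0.044, -0.10, -0.086 and -0.0039. The part of these cell types in the values of ptr-22 and wrt-10 was not tested.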

How the data were processed

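Whole-worm RNA of 3 tyrosol and 3 control samples was measured on Affymetrix arrays, with 50 ng of RNA labelled and 15 µg of product hybridised, per the labels. The deposited values are log2 expression values that the authors made with RMA, per the labels and the submitters' processing notes. The sources used here give no version of RMA. The table holds 22625 probe sets. After 77 control probe sets were left out, 22548 were tested, of which 20766 name 1 gene, 887 several and 895 none. Gene names come from the platform annotation, with symbols updated by gene ID through the RefSeq gene table. The annotation's genome build is unstated in the sources used here, so positions are left out.

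The rank product (100 permutations within arrays, 9 differences) and limma 3.58.1 in R 4.3.3 (lmFit, eBayes, two-sided, Benjamini-Hochberg over 22548 probe sets) were run on all probe sets with Python 3.11.15, and both were tested on simulated data. The false discovery rate of the rank product comes from values permuted over probe sets within each array. It does not measure a gene's spread between samples, as the SE of limma does. Precision is limited by the number of arrays, with a median SE of a difference of 0.12 over the 81 genes. Same-numbered arrays deviated together over all probe sets (r = 0.11, 0.37 and 0.26), so the numbers were taken to pair the samples, although tyrosol replicate 1 correlated more with control replicate 3 (r = 0.28). Over the 81 genes alone these r were -0.085, 0.028 and 0.16.

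The members and lists were chosen with earlier results of these data known. The named genes are the called members, the 12 with the smallest limma p, and in each family the 2 brightest and the 1 with the largest difference. Named beyond that rule, after their values were seen, were ptr-10, grd-14, grd-10, grl-18, neighbouring genes and genes of the lists. Lists of 10 kinds were used: other hedgehog pathway genes, moulting and apical matrix, epidermis and seam, glia, neurons, intestine, sperm, oocyte and germ line, early embryo and adult hermaphrodite. Alternatives were single arrays left out, the replicate block, probe set choices, 2 further normalizations, a filter on dim probe sets, array weights and another random seed.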

Additional observations from a re-analysis of the deposited data

How the results depend on the processing

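The rank product called 2 of the 81 genes higher in worms on tyrosol, ptr-22 and wrt-10, and leaving out single arrays gave 1 to 2, with ptr-22 called each time. Without probe sets of the suffixes _x_at, _s_at and _f_at it called 1 of 59, since the probe set of wrt-10 is among those removed. It called 0 lower under every alternative run, and on the lower side limma with all arrays had 0 of the 81 below an unadjusted p of 0.05 without the replicate block and 1, grl-2, with it. Limma called 1 gene, ptr-22, then 0 to 1 without single arrays, 2 with the replicate block and 2 with array weights, in both of these ptr-22 and wrt-10. In the 5 fits without a single array in which limma called 0 of the 81 it called 0 of all genes in 4 and 50 of all genes without tyrosol replicate 2. The replicate block changed no other call of the 81 genes. The median of the ligands, -0.032, ran from -0.052 to -0.0018 without single arrays. The median of the receptors, -0.026, ran from -0.030 to 0.034 without single arrays, was 0.088 for probe sets at or above the median signal, where 11 receptors are left, and 0.067 without the suffixed probe sets. Of the 21 named members without a call 9 changed sign under some alternative and 0 passed under any. Signal over background limits what can be said of the 56 members below the median signal.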
